A study of Acropora tenuis with 242 samples.

Results

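In larvae of the reef-building coral Acropora tenuis, 235 of the 9449 gene models with a larval mean of at least 10 CPM (counts divided by the library's total, put on one common scale) were higher in Ambient larvae than in Pre larvae and lower in Hot larvae than in Ambient larvae. The larval table held 25142 gene models in all. The 100 of these 235 with the strongest changes are described here and are called the members. They were chosen on these libraries: log2(mean CPM of the libraries of a group + 1) was taken per cross and treatment, the difference Ambient minus Pre was averaged over 11 crosses and had to reach 0.5, the difference Hot minus Ambient was averaged over 10 crosses and had to be -0.5 or lower, and the gene models were ranked by the smaller of both sizes. The larval values below are therefore a description and carry no test, except where a difference between crosses is tested. Another 150 gene models were higher at Ambient than at Pre with a heat difference under 0.5 in size.

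Hot and Ambient larvae came from the heated and the control temperature treatment, and Pre larvae were sampled before it. There were 30 Hot, 33 Ambient and 33 Pre libraries, 3 per cross and treatment, from 11 crosses within and between 5 Great Barrier Reef populations labelled BK, CU, DR, LS and SB, and LSxSB had no Hot libraries. Each library is from larval tissue, which the design text describes as pools of larvae, and the larval libraries carry no symbiont treatment (the label is N/A). The sources used here give neither the temperatures nor the length of exposure nor the age of the larvae. They do not say whether libraries within a group stem from separate cultures. Within each larval group of cross and treatment, the titles share their number and differ only in a suffix. The p-values therefore measure the spread between libraries. In larvae, a difference between cultures cannot be told apart from a difference between crosses or treatments. Juveniles, settled from the remaining larvae, gave 27 Hot libraries (6 D1, 15 SED, 6 SS) and Ambient libraries of 4 kinds (28 SED, 32 D1, 30 SS, 29 C1) from 10 crosses, where SED, D1, SS and C1 are symbiont uptake treatments whose codes the labels do not spell out. Total counts per library were 79712 to 1102351 in larvae (median 871515.5) and 158481 to 962906 in juveniles (median 369969.5). The files do not pair the identifiers, which begin with Amillepora, with gene names, so no role can be given to a member, and no defining marker of larval or juvenile tissue could be checked.

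As background, larvae of this coral swim and do not feed until they settle, living on reserves laid down in the egg, and they change their transcripts as they become able to settle and metamorphose. Warming changes the pace of larval development in corals and also calls up stress transcripts. Symbiotic algae are taken up from the surroundings by larvae or by young polyps after settlement.

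The member with the strongest combined change was Amillepora01048-RA. Its 30 Hot libraries held 0 to 16.4 CPM with a median of 4.99, the 33 Ambient libraries 10.98 to 52.1 CPM with a median of 22.5, and the 33 Pre libraries 0 to 21.7 CPM with a median of 5.00. Ambient exceeded Pre in 11 of 11 crosses and Hot was below Ambient in 10 of 10. On the log2(CPM + 1) scale the mean Ambient minus Pre difference was 1.90 ± 0.74 (SD over 11 crosses) and the mean Hot minus Ambient difference -1.85 ± 0.53 (SD over 10 crosses), so that Hot minus Pre was -0.05 ± 0.76. The second, Amillepora03296-RA, averaged 99.7 ± 32.6 CPM at Hot over 10 crosses, 302.6 ± 103.1 CPM at Ambient and 120.02 ± 60.6 CPM at Pre over 11 crosses (SD). Both therefore stood at Hot near their mean Pre level, within the spread between crosses.

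At the limit of the list the values were close. The last members, Amillepora24438-RA and Amillepora10758-RA, had a ranking value of 0.612 each, and the first gene models outside, Amillepora14633-RA and Amillepora27187-RA, had 0.609 each. The median member had an Ambient minus Pre difference of 0.73 and a Hot minus Ambient difference of -0.92, against medians of 0.04 and 0.01 over the 9449 gene models.

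**Figure D1:**
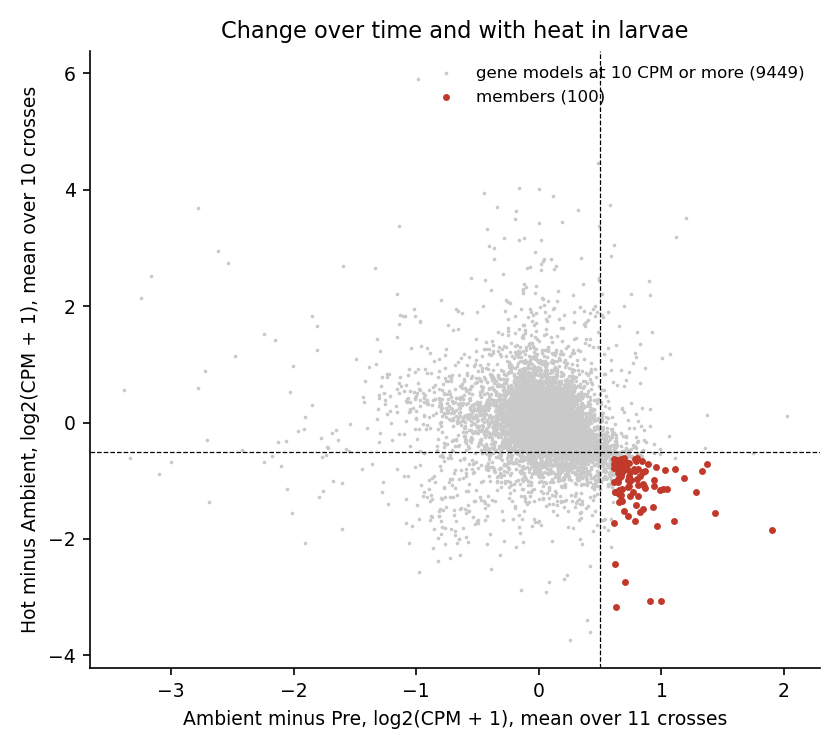
Mean change with time (horizontal axis, Ambient minus Pre, log2(CPM + 1), 11 crosses) and with heat (vertical axis, Hot minus Ambient, 10 crosses) of 9449 gene models (grey) and the 100 members (red). The dashed lines at 0.5 and -0.5 are the limits of the rule, and the members fill the lower right corner, down to a heat difference of -3.17.

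In summed counts the members took 1.13 ± 0.29% of a library at Hot (SD over 10 crosses), 2.40 ± 0.61% at Ambient and 1.51 ± 0.66% at Pre (SD over 11 crosses). The largest part of the counts came from Amillepora12232-RA, with 2353 ± 766 CPM at Hot over 10 crosses, 4908 ± 1369 CPM at Ambient and 3025 ± 1550 CPM at Pre over 11 crosses (SD). Amillepora13528-RA followed with 734 ± 309 CPM at Hot, 2400 ± 974 CPM at Ambient and 1528 ± 849 CPM at Pre. These are whole larvae, so fewer cells of a type and less RNA per cell cannot be told apart.

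Averaged over the 10 crosses, most members lay near their Pre level at Hot, as did most of all gene models. The members were shifted to lower values. Hot minus Pre was within 0.5 on the log2 scale for 71 members, at least 0.5 above for 2 and at least 0.5 below for 27, of which 9 were at least 1 below. Of all 9449 gene models, 76.7% were within 0.5, 11.8% at least 0.5 above and 11.5% at least 0.5 below. The median member stood at -0.26 and the median of all gene models at 0.04, and 88 members were below 0. That median rested on CUxCU and CUxSB: without both crosses, a choice made after seeing the data, it was -0.05. Within single crosses, the members within 0.5 of Pre ran from 7 in CUxSB to 72 in DRxSB.

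The 2 members with the lowest Hot minus Pre difference were below Pre in at least 9 of 10 crosses. Amillepora06428-RA had 15.3 ± 5.2 CPM at Hot, 161.0 ± 68.2 CPM at Ambient and 118.2 ± 78.4 CPM at Pre, and its mean Hot minus Pre difference was -2.69 ± 0.91 with Hot below Pre in 10 of 10 crosses. Its Hot level was also narrow: cross means ran from 5.50 to 21.5 CPM at Hot and from 17.8 to 239.96 CPM at Pre. Amillepora10181-RA had 5.21 ± 4.17 CPM at Hot, 46.0 ± 21.2 CPM at Ambient and 25.2 ± 19.3 CPM at Pre, with a difference of -2.20 ± 1.58 and Hot below Pre in 9 of 10 crosses. At the other end, Amillepora32287-RA kept 13.1 ± 3.6 CPM at Hot, against 9.23 ± 4.64 CPM at Pre, with Ambient at 23.6 ± 8.5 CPM. Its difference from Pre, 0.52 ± 0.81, was smaller than its spread over crosses. The same held for Amillepora18145-RA (0.50 ± 2.07), which was above Pre in 6 crosses and below it in 4. In Amillepora06428-RA the heat difference was thus larger in size than the difference over time, with Hot minus Ambient at -3.17 and Ambient minus Pre at 0.63.

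Whether Hot stood at the Pre level depended on the cross. In CUxSB the median level of the 100 members was 5.03, 5.05 and 5.06 in the Hot libraries, 6.91, 6.86 and 6.79 in the Ambient libraries and 6.64, 6.89 and 6.92 in the Pre libraries (log2(CPM + 1)). The members of that cross were thus at their high level before the exposure, and Hot was far below both. CUxCU was alike, with 5.13, 5.32 and 5.26 at Hot, 6.64, 6.30 and 6.49 at Ambient and 6.87, 6.70 and 6.77 at Pre. In these crosses Hot minus Pre had a median over members of -1.55 (CUxSB) and -1.36 (CUxCU), with 99 and 97 of the 100 members below Pre.

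DRxDR went the other way. Its median member level was 5.54, 5.56 and 6.25 in the Hot libraries, 6.19, 6.09 and 6.17 in the Ambient libraries and 5.29, 5.18 and 5.23 in the Pre libraries. Every Hot library was above every Pre library, Hot minus Pre had a median of 0.71, and 81 members were above Pre. One Hot library reached the Ambient level and the other 2 lay between.

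The remaining crosses lay between these ends. Median Hot minus Pre was -0.71 in BKxBK, -0.47 in LSxCU, -0.38 in LSxLS, 0.07 in DRxSB, 0.13 in CUxBK, 0.13 in SBxBK and 0.16 in SBxSB. By library medians, all Hot libraries were below all Pre libraries in 4 crosses (CUxSB, CUxCU, BKxBK and LSxLS), above them in 2 (DRxDR and SBxBK), and the groups overlapped in 4 (LSxCU, DRxSB, CUxBK and SBxSB). The SD of the cross medians of Hot minus Pre was 0.72, while the largest SD between the 3 libraries of a group was 0.48. LSxCU holds the shallowest library, at Pre with 79712 counts. Leaving it out, a choice made after seeing the data, gave a median Hot minus Pre of -0.27 over all crosses.

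**Figure D2:**
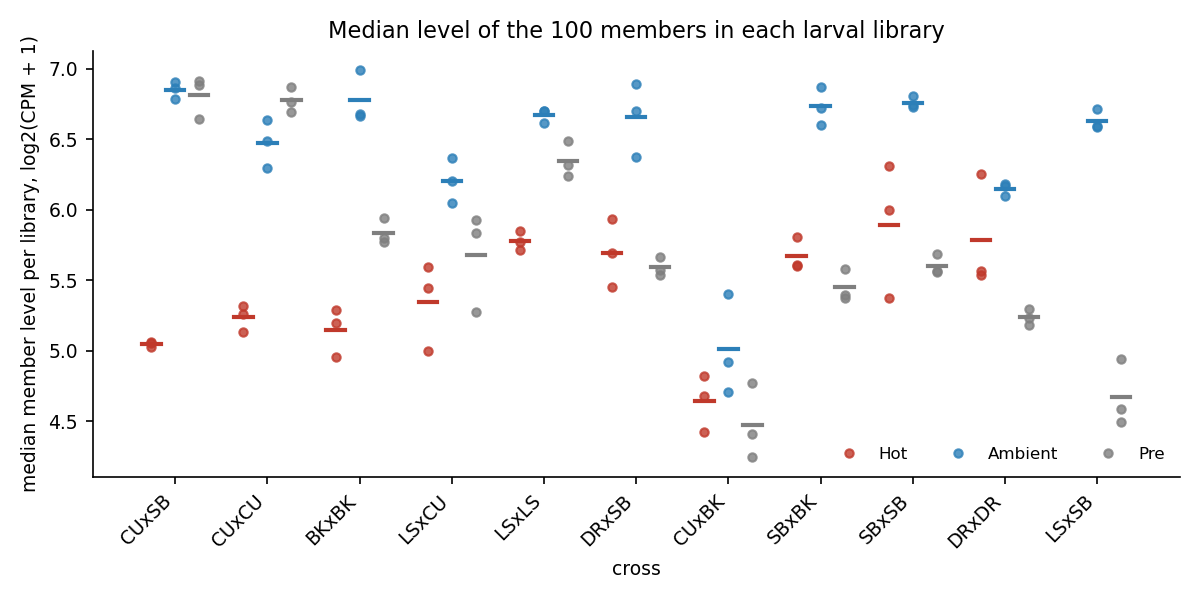
Median level of the 100 members in each larval library (vertical axis, log2(CPM + 1)) for Hot, Ambient and Pre in 11 crosses ordered by median Hot minus Pre, points being libraries and bars the mean of 3. In CUxSB and CUxCU the Pre libraries stand with the Ambient ones and the Hot libraries far below, whereas in DRxDR the Hot libraries lie above Pre. LSxSB, at the right, has no Hot libraries.

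The level at Hot differed less between crosses than the level at Pre. The cross medians of the member level had an SD of 0.43 at Hot, 0.53 at Ambient and 0.75 at Pre over the 10 crosses with all 3 treatments, and ran from 4.63 to 5.99 at Hot and from 4.43 to 6.84 at Pre over all crosses with the treatment. For 92 of the 100 members the SD over crosses was larger at Pre than at Hot, and this was so for 74.2% of the 9449 gene models. CUxBK was lowest in each treatment, at 4.63 in Hot, 5.11 in Ambient and 4.43 in Pre larvae. Its members took 0.574% of the counts at Hot, 0.808% at Ambient and 0.528% at Pre.

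The difference over time varied in size between crosses. The median Ambient minus Pre over the members was -0.25 in CUxCU, 0.12 in CUxSB, 0.41 in CUxBK, 0.42 in LSxLS, 0.44 in LSxCU, 0.89 in BKxBK, 0.94 in DRxSB, 1.08 in DRxDR, 1.09 in SBxSB, 1.17 in SBxBK and 1.90 in LSxSB. Only 37 of the 100 members were higher at Ambient than at Pre in CUxCU and 59 in CUxSB, whereas 100 were in DRxSB and in SBxSB. Over single members, 12 were higher at Ambient in all 11 crosses and 57 in each of the 9 crosses other than CUxCU and CUxSB. For the heat difference, which was larger in size for the median member, 64 members were lower at Hot in all 10 crosses. The cross medians ran from -1.61 in BKxBK, where all 100 were lower, to -0.31 in CUxBK, where 78 were lower. The rule used these values, and shares of all gene models were not taken.

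**Figure D3:**
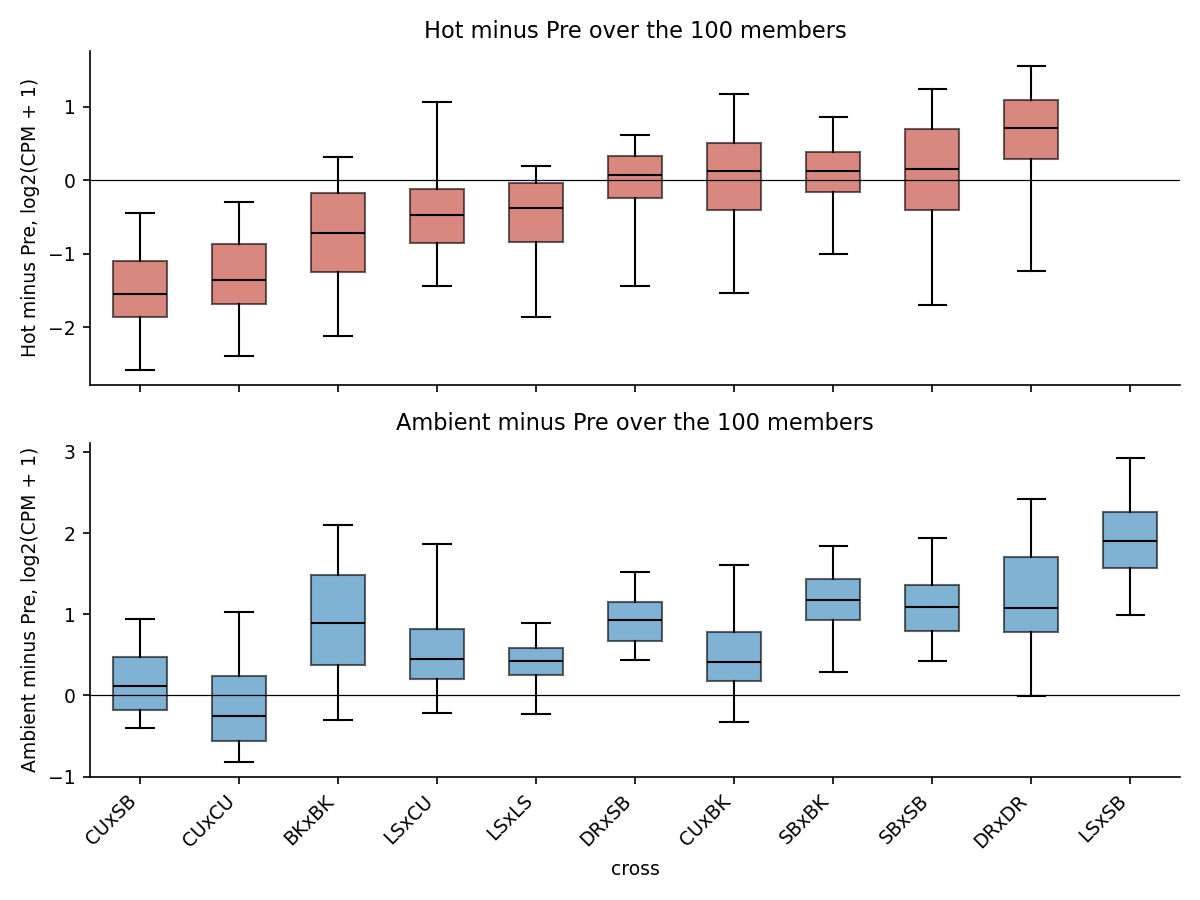
Hot minus Pre (top) and Ambient minus Pre (bottom) of the 100 members in each cross, on the log2(CPM + 1) scale, with boxes from the first to the third quartile, a line at the median and whiskers from the 5th to the 95th percentile over members. The median Hot minus Pre runs from -1.55 in CUxSB to 0.71 in DRxDR, and the median Ambient minus Pre from -0.25 in CUxCU to 1.90 in LSxSB.

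The rule was also applied with each cross left out, and the values of the left-out cross were then read for the 100 gene models so chosen, of which 79 to 93 were members. In a cross that had no part in the choice, Ambient minus Pre had a median above 0 in 10 of the 11 crosses, up to 1.77 in LSxSB, and was -0.34 in CUxCU. It was lowest of the 10 in CUxSB, at 0.10, with 55 of the 100 gene models higher at Ambient. The median of all gene models at 10 CPM was 0.05 in that cross. Hot minus Ambient had a median below 0 in all 10 crosses, from -1.53 in CUxSB to -0.29 in CUxBK. Hot minus Pre of the left-out cross ranged from -1.48 in CUxCU to 0.71 in DRxDR, and in BKxBK it was -0.97, against -0.71 for the members.

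The differences between crosses were tested on the libraries with edgeR's quasi-likelihood F-test, fitted to all gene models, with calls at an adjusted p under 0.05 (Benjamini-Hochberg). The heat difference varied between the 10 crosses in 77 of the 100 members, where 30.4% of the 11241 gene models tested were called, and 34.6% of those with a larval mean of at least 10 CPM. The difference over time varied between the 11 crosses in 96 members, where 45.5% of the 11531 gene models tested were called, and 50.7% of those at 10 CPM. The same libraries chose the members, so nothing is read from these gaps. Both tests called 75 members and neither called 2, and the shares of all gene models were not taken for this overlap.

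The 2 members with the smallest p in the heat test were Amillepora18852-RA and Amillepora23710-RA, each with an adjusted p of 2.63e-10 (edgeR). Amillepora18852-RA had 39.5, 41.7 and 58.4 CPM in the Hot libraries of CUxSB, against 182.9, 165.4 and 143.2 CPM in its Ambient libraries. In DRxDR the values were 62.1, 106.7 and 125.1 CPM at Hot, against 69.9, 68.0 and 73.4 CPM at Ambient. The groups of CUxSB were far apart and those of DRxDR overlapped. Amillepora23710-RA had 100.1, 119.3 and 89.6 CPM at Hot in CUxSB, against 350.1, 260.2 and 259.6 CPM at Ambient, and in SBxSB 241.4, 301.6 and 173.4 CPM at Hot, against 202.9, 253.01 and 242.8 CPM at Ambient.

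For the difference over time the smallest p values belonged to Amillepora24146-RA and Amillepora20413-RA, each with an adjusted p of 6.88e-22 (edgeR). Amillepora24146-RA had 273.1, 262.6 and 261.1 CPM in the Ambient libraries of LSxSB, against 59.1, 62.2 and 75.4 CPM in its Pre libraries. In CUxCU it had 255.2, 175.7 and 181.1 CPM at Ambient, against 376.1, 367.2 and 310.2 CPM at Pre. The direction was therefore opposite in these 2 crosses, with no overlap of the libraries in either. Amillepora20413-RA had the same form, with 482.6, 401.4 and 462.6 CPM at Ambient in CUxCU, against 827.8, 819.7 and 776.5 CPM at Pre.

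**Figure D4:**
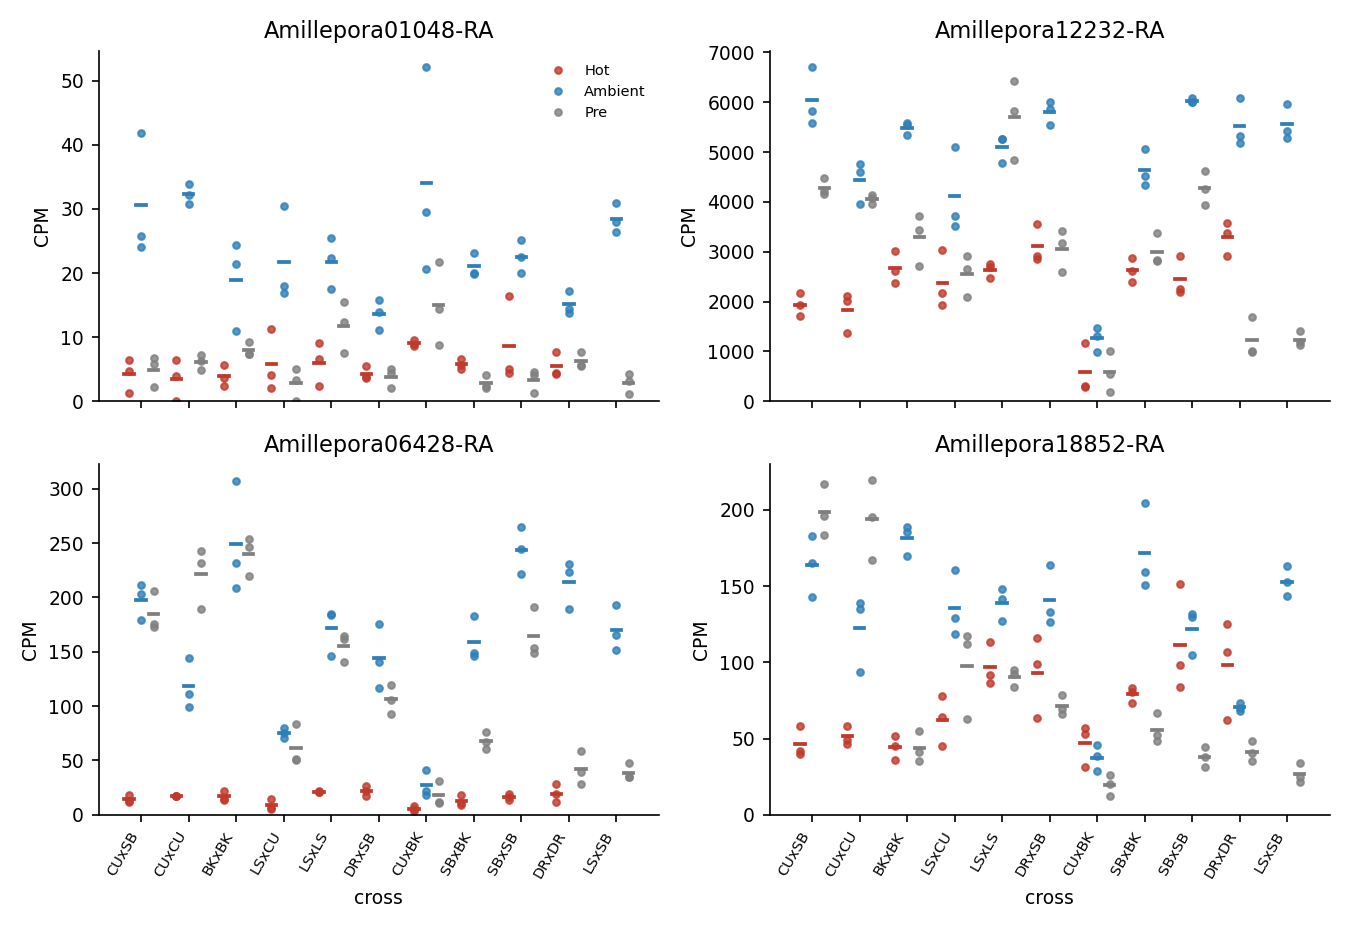
CPM of 4 members in each larval library (vertical axes from 0) by cross, for Hot, Ambient and Pre, points being libraries and bars the mean of 3. Amillepora01048-RA and Amillepora12232-RA stand highest at Ambient in most crosses, Amillepora06428-RA is low at Hot in all 10 crosses with Hot libraries, and Amillepora18852-RA is highest at Pre in CUxSB and CUxCU.

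The members moved together across the 32 groups of cross and treatment. The median correlation between pairs of members over the 32 group levels was 0.754, and 0.012 over all pairs of the 9449 gene models. The choice of members fixes part of this, since all were chosen for the same treatment pattern. With the mean of each treatment taken out, so that only the differences between crosses within a treatment remained, the median was 0.680 for the 4950 member pairs and again 0.012 for all pairs, and 71.6% of member pairs against 4.55% of all pairs exceeded 0.5. The same group levels chose the members, also with the treatment means taken out. The points share libraries and depth, and these are values without a test. The 3 gene models closest to Amillepora01048-RA over the 32 groups were Amillepora06133-RA (r = 0.737), Amillepora23305-RA (0.733) and Amillepora04848-RA (0.726). All of them are members, and these levels include the treatment pattern of the choice.

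Some members bear consecutive identifiers. There were 4 such pairs, Amillepora05921-RA with Amillepora05922-RA, Amillepora12690-RA with Amillepora12691-RA, Amillepora13331-RA with Amillepora13332-RA, and Amillepora16770-RA with Amillepora16771-RA, and their group levels correlated at 0.770, 0.845, 0.968 and 0.925. Whether the gene models of a pair share sequence was not analysed here, so reads could have been split between near-identical copies.

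In juveniles the members were much lower. All 100 had a line in the juvenile table. Taking mean CPM per cross and then over crosses, 94 members were lower in Ambient juveniles than in Ambient larvae, where 51.7% of the 9449 gene models were lower. The members were chosen for being high in Ambient larvae, which tilts this comparison and those that follow towards a fall. At least 2-fold lower were 81 members (14.0% of all), at least 8-fold lower 27 (1.74% of all) and at least 2-fold higher 1 (9.47% of all). The median difference was -2.0 on the log2 scale for the members and -0.03 for all gene models. Ambient juveniles were below the larvae at Hot for 80 members and below Pre for 87. The share of all gene models was not taken for these counts, so nothing is read from them.

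The drop was found in each of the 8 crosses held by both stages. Its median over the members ran from -1.79 in CUxCU to -2.30 in BKxBK, while the median of all gene models stayed between -0.08 and 0.02, and 85 members were lower in every one of the 8 crosses (31.3% of all gene models). Life stage and table coincide, with any step that differed between them, and cannot be told apart. The larval values also chose the members, so these values have no test.

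Among single members, Amillepora12232-RA had 0.850 CPM in Ambient juveniles, against 4908 CPM in Ambient larvae. It had 31 counts over all Ambient juvenile libraries. Amillepora10181-RA, one of the 2 lowest in juveniles, had 1 count in them, and Amillepora30074-RA had 10 counts. In all, 6 members were under 1 CPM and 34 under 10 CPM. The highest members in Ambient juveniles were Amillepora16045-RA, at 631.3 ± 161.6 CPM over these libraries, against 482.2 ± 123.4 CPM in the 33 Ambient larval libraries, and Amillepora21014-RA, at 351.6 ± 201.7 CPM, against 196.1 ± 139.0 CPM (SD). Both stood higher in juveniles than in larvae, as did 6 members in all.

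**Figure D5:**
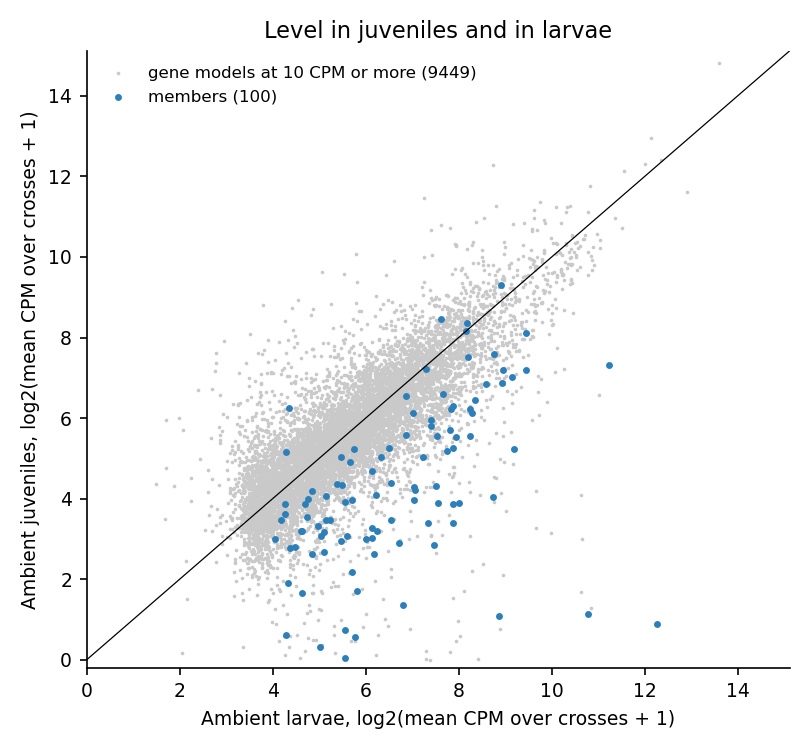
Level in Ambient juveniles (vertical axis, log2(mean CPM over 10 crosses + 1)) against the level in Ambient larvae (horizontal axis, 11 crosses) for 9449 gene models (grey) and the 100 members (blue), with the line of equal levels. Of the members, 94 lie below the line, and the lowest at the far right is Amillepora12232-RA, at 0.850 CPM in juveniles.

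The juvenile share of counts had a narrow range between crosses. The members took 0.518 ± 0.054% of the counts in the Ambient juvenile libraries (SD), and by cross from 0.480% in BKxBK to 0.555% in DRxCU. Ambient larvae had ranged from 0.808% to 2.94% over their crosses, but the lowest, CUxBK, has no juveniles, and DRxCU has no larvae. In the 8 crosses held by both stages, larvae ran from 2.01% in LSxCU to 2.94% in BKxBK. Juveniles ran from 0.480% in BKxBK to 0.542% in CUxSB there. A larval value rests on 3 libraries and a juvenile value on 10 to 13. In CUxCU and CUxSB, which had the highest Pre levels as larvae, the juvenile share was 0.497 ± 0.047% (n = 12) and 0.542 ± 0.042% (n = 11). By symbiont treatment the share was 0.534 ± 0.052% in SED, 0.529 ± 0.054% in D1, 0.508 ± 0.054% in SS and 0.501 ± 0.050% in C1.

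No fall with heat was seen for the members as a group in juveniles, but these values cannot decide whether heat lowers them there. Heat and library order were nearly confounded in juveniles, as given below. Temperatures and lengths of exposure are not known for either stage, so the stages cannot be compared at a like exposure. In the 69 libraries of the 14 combinations of cross and symbiont treatment with both temperatures (27 Hot, 42 Ambient), the members took 0.519 ± 0.047% of the counts at Hot, against 0.527 ± 0.045% at Ambient (SD). A filter on low counts kept 76 members, and 24 could not be tested. Of the 76, 20 were called (edgeR's quasi-likelihood test, adjusted over 11232 gene models), where 30.3% of all were called. They split into 11 higher (14.9% of all) and 9 lower (15.4% of all), and the median log2 difference was -0.02 over the members tested and -0.03 over all. These shares lie near those of all gene models.

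Juvenile heat and the index number in the column names were nearly confounded. The 25 libraries with the highest index numbers, called the late block, are 23 Hot and 2 Ambient. A gap in the numbering parts them from the rest, the early block. The larval libraries bear index numbers within this gap, and the late block follows directly on them. With the index block as a term, 0 of the 76 members were called (7 at an unadjusted p under 0.05) and 40 of all gene models. Within the early block alone (4 Hot and 12 Ambient libraries), 0 members were called (13 at an unadjusted p under 0.05) and 99 of all gene models. Without the libraries numbered replicate 1, 35 libraries of 12 combinations remained, and 11 members were called. Without replicate 2, 43 libraries of 14 combinations remained, and 9 members were called. Shares of all gene models are not given for these counts, so nothing is read from them about the members. The juvenile heat calls cannot be told apart from the index block.

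The largest rise with heat among the members called in juveniles was that of Amillepora12232-RA, by 2.98 ± 0.54 (log2, SE, adjusted p = 2.42e-05, edgeR). It was higher at Hot in 11 of the 14 combinations and equal in 3. Its 27 Hot libraries held 0 to 53.9 CPM with a median of 1.87, and its 42 Ambient libraries 0 to 80.3 CPM with a median of 0. Of the 30 Ambient counts, 28 were in 1 library. Of the 97 Hot counts, 96 were in the 23 Hot libraries of the late index block, and the 4 Hot libraries of the early block held 1. The late block follows on the index numbers of the larval libraries, and Ambient larvae had 4908 CPM of this gene model. Whether library order bears on these juvenile counts was not tested. With the index block as a term the difference was 0.05, and within the early block it was -2.74. Amillepora18145-RA followed at 2.65 ± 0.56 (adjusted p = 0.000201, edgeR), with 0 to 341.1 CPM at Hot (median 5.41) and 0 to 81.0 CPM at Ambient (median 1.95). With the index block as a term its difference was 0.77 (adjusted p = 0.790, edgeR), and with DESeq2 that of Amillepora12232-RA had an adjusted p of 0.0580.

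The largest falls with heat among the members called in juveniles were those of Amillepora05305-RA and Amillepora08486-RA. Amillepora05305-RA had 0 to 24.2 CPM in Hot juveniles (median 3.04), against 0 to 52.3 CPM in Ambient juveniles (median 8.18), a difference of -1.10 ± 0.35 (SE, adjusted p = 0.0113, edgeR), lower in 13 of 14 combinations. As larvae it had 2.95 ± 2.13 CPM at Hot and 26.1 ± 19.5 CPM at Ambient (SD over crosses). Amillepora08486-RA had 4.37 to 66.2 CPM at Hot (median 31.1), against 5.15 to 206.4 CPM at Ambient (median 50.0), a difference of -0.78 ± 0.22 (adjusted p = 0.00569, edgeR). With the index block as a term the differences were -1.04 and -0.10, with adjusted p of 0.579 and 0.955 (edgeR). Without replicate 1 or 2 the call of Amillepora05305-RA was lost (adjusted p of 0.0769 and 0.280), and without replicate 1 or 3 that of Amillepora08486-RA (0.0554 and 0.0748, edgeR). These fits were smaller, with 35, 43 and 56 libraries left without replicate 1, 2 and 3, against 69 in the main fit.

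Symbiont treatment was compared in the Ambient juvenile libraries, each treatment against the same C1 libraries, with cross in the fit. Within each cross, all C1 libraries bear lower title numbers than all SED libraries. The SED calls can therefore not be fully told apart from library order. The low-count filter kept 70 members and left 30 untested. Against C1, 21 of the 70 were called in SED, where 26.6% of all 10621 gene models were called, and they split into 14 higher (12.3% of all) and 7 lower (14.3% of all). In D1, 6 were called (5.17% of all), 4 higher (2.50% of all) and 2 lower (2.67% of all). In SS, 5 were called (7.22% of all), 4 higher (3.57% of all) and 1 lower (3.65% of all). Median differences over the members tested were -0.08 in SED, 0.03 in D1 and 0.03 in SS, and 0.00 over all gene models in each. In all, 22 members were called in at least 1 of the 3 contrasts and 1 in all 3. The shares of all gene models were not taken for these overlaps. Without the libraries numbered replicate 2, 12 were called in SED, 2 in D1 and 2 in SS, and without replicate 1, 9 in SS. Without replicate 3, 10 were called in SED and 0 in D1 and in SS, with 7 at an unadjusted p under 0.05 in each of the last 2 (edgeR). Shares of all gene models are not given for the counts without a replicate, so nothing is read from them about the members.

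The member called in all 3 was Amillepora25140-RA, which was lower in each treatment than in C1. It had 4.38 ± 4.24 CPM in SED, 8.28 ± 7.27 CPM in D1, 7.87 ± 8.86 CPM in SS and 17.2 ± 10.6 CPM in C1 (SD). The log2 difference from C1 was -1.85 ± 0.36 in SED (adjusted p = 2.56e-05), -0.99 ± 0.31 in D1 (adjusted p = 0.0424) and -1.16 ± 0.32 in SS (adjusted p = 0.0102, SE, edgeR), and SED was lower in 10 of 10 crosses. Its D1 call was lost with the index number as a covariate (-0.72, adjusted p = 0.236) and without replicate 1, 2 or 3 (adjusted p of 0.178, 0.189 and 0.254, edgeR). Its SS call was lost without replicate 3 (-0.69, adjusted p = 0.359, edgeR), while its SED call held under each of the alternatives run. It is low in juveniles altogether, with 233.0 ± 69.7 CPM in Ambient larvae. Amillepora05305-RA was also lower, by a log2 difference of -0.89 ± 0.32 in SED (adjusted p = 0.0250) and -1.01 ± 0.30 in D1 (adjusted p = 0.0311, edgeR), with 12.4 ± 13.2 CPM in SED, 11.5 ± 11.2 CPM in D1 and 23.6 ± 18.4 CPM in C1. With the index number as a covariate both of its calls were lost, at adjusted p of 0.268 and 0.158, and without replicate 3 at 0.700 and 0.760 (edgeR).

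Among the members called in SED, Amillepora27430-RA and Amillepora35533-RA had the largest rises. Amillepora27430-RA had 3.33 to 62.5 CPM in the 28 SED libraries (median 25.9), against 0 to 20.2 CPM in the 29 C1 libraries (median 5.13), with a difference of 2.0 ± 0.26 (SE, adjusted p = 2.85e-10, edgeR), higher in 10 of 10 crosses. The libraries of both groups overlapped, but the SED median lay above the highest C1 library. In SS it had 0 to 31.9 CPM (median 13.6) and a difference of 0.98 ± 0.26 (adjusted p = 0.00896, edgeR). Amillepora35533-RA averaged 36.8 ± 14.1 CPM in SED, 29.9 ± 11.8 CPM in SS and 20.8 ± 10.7 CPM in C1 (SD), with differences of 0.84 ± 0.17 in SED (adjusted p = 2.66e-05) and 0.57 ± 0.16 in SS (adjusted p = 0.0165, edgeR). The SS call of Amillepora27430-RA was lost without replicate 1 or 3 (adjusted p of 0.0897 and 0.129) and that of Amillepora35533-RA without replicate 2 or 3 (0.324 and 0.185, edgeR). Among the members called in D1, the largest rises were those of Amillepora12335-RA, by 0.47 ± 0.10 (adjusted p = 0.00173), and Amillepora15047-RA, by 0.47 ± 0.13 (adjusted p = 0.0162, edgeR). Amillepora12335-RA averaged 223.05 ± 53.1 CPM in D1 and 162.8 ± 56 CPM in C1, higher in 10 of 10 crosses. Its D1 call was lost without replicate 2 or 3 (adjusted p of 0.0502 and 0.662) and that of Amillepora15047-RA without replicate 1 or 3 (0.153 and 0.254, edgeR).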

How the data were processed

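Tag-based libraries were made from RNA of larval and juvenile tissue (RNAqueous kit), per the labels' protocols. Raw counts per gene model were deposited, 1 table per life stage. The submitters' processing notes name Bowtie2 2.2.9, and the sources used here state neither the reference nor the counting step nor any removal of duplicates.

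Columns were matched to samples through the title in their names, and CPM was the count divided by the column total. Members, lists and tests were chosen with earlier results of these data known. Tests used edgeR 4.0.16 in R 4.3.3 (filterByExpr, TMM, glmQLFit, glmQLFTest) on whole tables, called at a false discovery rate of 0.05. The larval tests took the interaction of cross with temperature (60 libraries) and of cross with time (66 libraries). Juvenile heat had combination of cross and symbiont treatment as a term, and the symbiont contrasts had cross. DESeq2 1.42.0 was an alternative. Scripts were tested on simulated data. No pair of replicate libraries agreed within sampling noise.

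Members were named by rule: the highest and lowest by ranking value, level, Hot minus Pre, interaction p and juvenile difference, 2 per direction, those beside the limit of the list, and the 3 gene models most like the first. The files hold no gene names, so lists of stress, cilia, calcification and similar genes were not used.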

Additional observations from a re-analysis of the deposited data

Results flagged for a closer look

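Differences between crosses were called for 77 members with heat and 96 with time (edgeR). Of the gene models with a larval mean of at least 10 CPM, 34.6% and 50.7% were called, and the same libraries chose the members. Adjusted p was 2.63e-10 for both Amillepora18852-RA and Amillepora23710-RA (heat) and 6.88e-22 for both Amillepora24146-RA and Amillepora20413-RA (time, edgeR). Median Hot minus Pre was 0.71 in DRxDR, with every Hot library above every Pre library, and -1.55 in CUxSB, with every Hot library below every Pre library. This opposition between crosses was not itself tested. Among 41 groups of 4 to 10 values examined, 1 held a value far from the others: Hot minus Pre of Amillepora12232-RA was 1.42 in DRxDR and at most 0.021 in the other 9 crosses, where chance flags about 1 in 20 groups.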

How the results depend on the processing

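Applied with other settings, the rule kept 79 to 97 of the 100 members, and 80 to 85 on leaving out replicate 1, 2 or 3, except for 64 with no CPM minimum and 63 without both CUxCU and CUxSB (chosen after seeing the data). Median Hot minus Pre was -0.30 to -0.21 on leaving out a replicate and -0.29 to -0.25 under TMM sizes and other pseudocounts. TMM sizes moved the median of all gene models by under 0.1 in each difference, and the sign of the median Hot minus Pre was kept in 10 of 10 crosses. No alternative changed the larval tests by over 1.5 times: 67 to 83 members were called with heat and 88 to 97 with time. Shares of all gene models are not set beside these counts or those with the replicate block, so they do not compare the members with other gene models.

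Replicate numbers did not pair the larval libraries (correlation of deviations -0.262 to 0.128 over 63 pairs, and in 15 of the 63 the same number gave the highest correlation). The replicate block left 77 and 96 members called.

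Juvenile heat called 9 to 19 members on leaving out a replicate, 11 in SED alone and 0 with the index block as a term or in the early block. In that block Amillepora12232-RA changed sign (-2.74); the cause was not tested. Leaving out a replicate gave 10 to 21 members in SED, 0 to 9 in D1 and 0 to 9 in SS. Shares of all gene models are not set beside these juvenile counts, so they do not compare the members with other gene models. Among the alternative values for named members, 31 lost the call with the same sign, and the value of Amillepora12232-RA that changed sign lost it too (adjusted p = 0.592, edgeR), all of them in juveniles. Juvenile minus larval level was -2.18 under TMM sizes over both tables. In juveniles, 24 members in the heat test and 30 in the symbiont contrasts had too few counts to be tested.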
